A study of Homo sapiens with 6 samples.

Results

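hsa-miR-21-5p and hsa-miR-21-3p are the mature miRNAs cut from the opposite arms of the miR-21 hairpin. Both were taken by name from the list of 2588 miRNAs counted in each library, and they are 2 of those 2588. Small RNA was sequenced from the lung adenocarcinoma line A549 and from BEAS-2B, bronchial epithelial cells made immortal in culture, both human and labelled WT. In each line, 1 culture was left without TGF-β1, 1 received the lower dose of 1 ng/mL and 1 the higher dose of 5 ng/mL, and treatment lasted 48 h. TGF-β1 is the cytokine best known for turning epithelia mesenchymal and for raising matrix production in fibrosis. The labels describe TGF-β1 as given in medium with reduced serum and do not say whether the untreated cultures had the same medium. Each of the 6 groups had 1 library, so there is no replicate error and no test of treatment. Every interval given is a 95% interval for counting error only and holds no spread between cultures. It may be too narrow even for counting error, since reads without molecular identifiers are not independent molecules.

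A miRNA hairpin is cut from its primary transcript by Drosha and then by Dicer, which leaves a duplex of its arms. Usually the guide arm is kept by Argonaute, pairs through its seed with target mRNAs and lowers their output, while the passenger arm is discarded. miR-21-5p is the guide arm of miR-21. It is abundant in many tumour and epithelial cells, is known to repress PDCD4 and SMAD7, and has been linked to TGF-β signalling and lung fibrosis. Receptor-activated SMAD proteins, the effectors of TGF-β, have been described to bind the letters CAGAC in some primary miRNA transcripts, miR-21 among them, and to promote their cutting by Drosha.

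The MIR21 hairpin is 72 bases long and lies on the plus strand at chr17:59841266-59841337 (GRCh38). It is inside the annotated VMP1 gene, which encodes an autophagy protein and spans chr17:59707192-59842255 on the same strand. None of the 7 protein-coding VMP1 transcripts covered the hairpin, and the last of them ended 174 bases before it. Of the 17 annotated VMP1 transcripts, 1 had an exon over the hairpin, a transcript of the retained-intron type. No other hairpin of the RefSeq table overlapped MIR21.

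The mature sequence of miR-21-5p is shown because its seed, bases 2 to 8 in capitals, defines its family, and that of hsa-miR-590-5p because it was the only other miRNA with this seed in the RefSeq table (GRCh38.p14). miR-21-5p comes from chr17:59841273-59841294 on the plus strand and miR-590-5p from chr7:74191213-74191234 on the plus strand.
hsa-miR-21-5p: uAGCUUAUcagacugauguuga
hsa-miR-590-5p: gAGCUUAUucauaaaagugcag
miR-590-5p had 1 count in the A549 control and 0 in the other 5 libraries, and a count of 0 allows up to 3 counts. Nearly every count with this seed was therefore a count of miR-21-5p.

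miR-21-5p was the most abundant miRNA in all 6 libraries. In A549 cells, it had 419780 counts in the control, 511881 at the lower dose and 301167 at 5 ng/mL. In BEAS-2B, it had 260388 counts in the control, 350475 at the lower dose and 438582 at 5 ng/mL. Because totals differed between libraries, from 633318 to 900424 counts, the share of the library is the plainer measure. In A549 cells, the share of miR-21-5p was 53.2% (exact Clopper-Pearson interval 53.0 to 53.3) in the control, 56.8% (56.7 to 57.0) at the lower dose and 47.6% (47.4 to 47.7) at 5 ng/mL. In BEAS-2B, it was 35.4% (35.3 to 35.5) in the control, 53.3% (53.2 to 53.5) at the lower dose and 57.2% (57.0 to 57.3) at 5 ng/mL. The BEAS-2B control was the lowest of the 6 libraries by a wide margin. The A549 control and BEAS-2B at the lower dose were neighbours in this order with overlapping intervals, and no other neighbouring pair overlapped.

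miR-21-3p, the passenger arm, was a minor miRNA in every library. In A549 cells, it had 258 counts in the control, 210 at the lower dose and 131 at 5 ng/mL, ranking 117th, 139th and 158th. In BEAS-2B, it had 92 counts in the control, 239 at the lower dose and 318 at 5 ng/mL, ranking 179th, 108th and 103rd. The doses therefore stood in opposite orders in the lines, with the control highest in A549 cells and lowest in BEAS-2B. Per 100000 miRNA counts, the A549 values were 32.7 (28.8 to 36.9), 23.3 (20.3 to 26.7) and 20.7 (17.3 to 24.5) from the control to 5 ng/mL. The BEAS-2B values were 12.5 (10.1 to 15.3), 36.4 (31.9 to 41.3) and 41.4 (37.0 to 46.3). The 2 treated libraries of each line had overlapping intervals, as did the A549 control and BEAS-2B at the lower dose. Both arms were thus lowest in the BEAS-2B control among the libraries, and both were highest in BEAS-2B at 5 ng/mL by share.

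**Figure D1:**
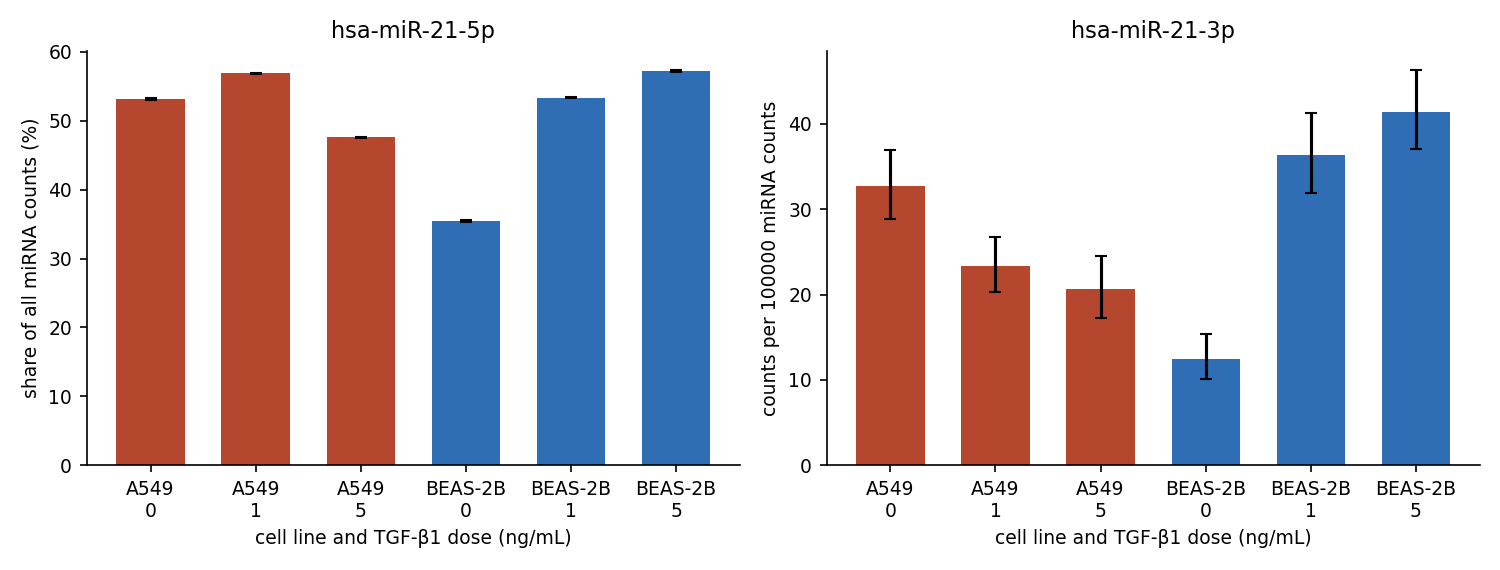
Share of all miRNA counts taken by miR-21-5p (left, percent) and counts of miR-21-3p per 100000 miRNA counts (right) in the 6 libraries, with bars from 0 and error bars giving exact 95% intervals for counting error. miR-21-5p took from 35.4% to 57.2% of a library, and miR-21-3p was highest in the control in A549 cells and lowest in the control in BEAS-2B.

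Before ratios were taken, the labelled cell types were checked and the libraries compared. Of 6 epithelial miRNAs (the miR-200 family, miR-141 and miR-205), 5 or 6 were counted in each library, with a summed count of 219 to 472. Because a total that contains miR-21-5p moves with it, the sum was taken per 100000 counts other than miR-21-5p. It was 59.2, 98.8 and 89.4 in A549 cells from the control to 5 ng/mL, and 99.4, 96.9 and 101 in BEAS-2B. miR-200b-3p held most of this, and miR-205-5p, which marks squamous and basal epithelium, was at 0 in 3 libraries and had at most 2 counts in the others. Blood cell miRNAs summed to at most 9 counts with miR-223-3p at 0 in all 6 libraries, muscle miRNAs to at most 3, and the liver miRNA miR-122-5p had 1 to 14. On this scale, the epithelial sum lay within a narrow range in BEAS-2B, where both miR-21 arms differed most, and was lower in the A549 control than in the treated A549 libraries. Its part in the A549 results was not tested. In bulk RNA, fewer cells that express a miRNA and less of it per cell cannot be told apart.

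Ratios between libraries were taken after trimmed mean of M-values (TMM) scaling over all 6 libraries. The scaled level, or normalised data value (ND), is given as log2(normalised count + 1). A miRNA was called when the greater ND of the compared libraries was at least 8, a normalised count of 255, and the fold change was at least 1.4. The ND of miR-21-5p was 18.74, 18.97 and 18.42 in A549 cells from the control to 5 ng/mL, and 17.61, 18.63 and 18.71 in BEAS-2B. The ND of miR-21-3p was 8.07, 7.73 and 7.26 in A549 cells and 6.17, 8.12 and 8.29 in BEAS-2B. miR-21-3p met the ND criterion in 3 of the 6 libraries, the A549 control and both treated BEAS-2B libraries, and by little in each. A call for miR-21-3p against a control therefore rests on the library where it is higher, and with the ND criterion on both libraries it would have no call.

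The first comparison asked how treated cells differed from untreated cells of the same line. Both arms were higher in treated BEAS-2B at both doses. At the lower dose, the log2 ratio to control of miR-21-5p was 1.02 (1.01 to 1.03), a 2.03-fold difference, and that of miR-21-3p was 1.95 (1.61 to 2.33), a 3.87-fold difference. At the higher dose, miR-21-5p had a log2 ratio of 1.10 (1.10 to 1.11), or 2.15-fold, and miR-21-3p one of 2.12 (1.80 to 2.49), or 4.36-fold. Both arms were past the criteria at each dose, where 29.2% of 120 miRNAs were called at the lower dose and 36% of 125 at 5 ng/mL in either direction. Counted from the largest increase, miR-21-3p was the 3rd and miR-21-5p the 8th of the 120 at the lower dose, and miR-21-3p was the 2nd and miR-21-5p the 9th of the 125 at 5 ng/mL. Both doses were read against the same control library, which was also the library with the lowest level of both arms.

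In A549 cells, the arms did not move together at the lower dose and were both lower at 5 ng/mL. With the lower dose, miR-21-5p had a log2 ratio of 0.23 (0.23 to 0.24) and miR-21-3p one of -0.35 (-0.62 to -0.08), and neither was past the criteria. Quantile normalisation alone, of the scalings run, gave miR-21-3p a call there (-0.58). At the higher dose, miR-21-5p had a log2 ratio of -0.32 (-0.32 to -0.31), short of the fold criterion. That of miR-21-3p was -0.81 (-1.13 to -0.51), a 1.76-fold lower level, and was past the criteria. This call ends by total count scaling and by TMM within the line, where the ND of the A549 control was 7.94 and 7.99. The background was high in this line, since 48.9% of 137 miRNAs were called at the lower dose and 53.2% of 141 at 5 ng/mL. A call for 1 of the 2 arms at 5 ng/mL is near that background.

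Ratios between miRNAs of the same library do not depend on scaling, so each arm was also set against 113 other miRNAs with a mean ND of at least 8. In BEAS-2B, miR-21-5p gained on 107 of the 113 at the lower dose and on 106 at 5 ng/mL. miR-21-3p gained on 111 and 112 of them. In A549 cells, miR-21-5p gained on 77 of the 113 at the lower dose and on 40 at 5 ng/mL, and miR-21-3p gained on 34 and 17. Both arms thus had a high place in treated BEAS-2B, and miR-21-3p a low place in A549 cells at 5 ng/mL, among these abundant miRNAs. A single factor for a library cannot change that order. These counts therefore restate the order of the ratios and are no separate check. The 113 were chosen by their ND after TMM.

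The doses were then compared directly. In A549 cells, miR-21-5p was lower at the higher than at the lower dose, with a log2 ratio of -0.55 (-0.56 to -0.55), and was past the criteria, as were 16.9% of 130 miRNAs. It was the 7th of the 130 from the largest decrease, and the call ends by total count scaling (-0.26). miR-21-3p had a log2 ratio of -0.47 (-0.79 to -0.15) and an ND of at most 7.73 in these libraries, below the criterion. In BEAS-2B, the log2 ratio at 5 against 1 ng/mL was 0.08 (0.08 to 0.09) for miR-21-5p and 0.17 (-0.07 to 0.42) for miR-21-3p. Neither arm was called there, where 6.61% of 121 miRNAs were.

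Between the untreated lines, both arms were higher in A549 cells. The log2 ratio of the A549 control to the BEAS-2B control was 1.12 (1.12 to 1.13) for miR-21-5p and 1.91 (1.57 to 2.28) for miR-21-3p. Both were past the criteria, as were 68.9% of 135 miRNAs, but miR-21-3p was not by total count scaling. miR-21-5p was the 31st and miR-21-3p the 18th from the top, so neither stood far apart from the other miRNAs that differ between these lines.

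The ratio of the arms to each other needs no scaling, because both are counted in the same library. In A549 cells, there were 1627 (1440 to 1845) counts of miR-21-5p for each count of miR-21-3p in the control, 2438 (2129 to 2804) at the lower dose and 2299 (1937 to 2750) at 5 ng/mL. In BEAS-2B, there were 2830 (2308 to 3511) in the control, 1466 (1292 to 1672) at the lower dose and 1379 (1236 to 1544) at 5 ng/mL. The BEAS-2B control did not overlap the treated BEAS-2B libraries, and the A549 control lay below both treated A549 libraries without overlap. In these libraries, the passenger arm was therefore a larger part of the hairpin's counts in treated than in untreated BEAS-2B. It was a smaller part in treated than in untreated A549 cells. Spread between cultures was not measured.

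**Figure D2:**
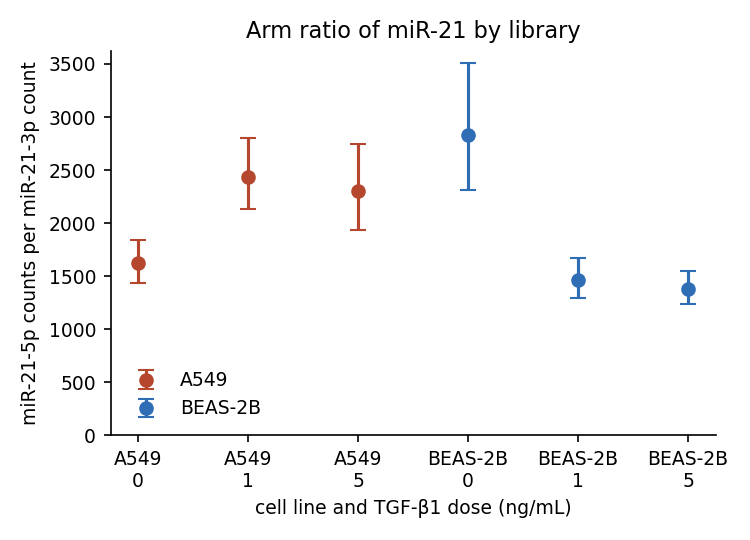
Counts of miR-21-5p for each count of miR-21-3p in the 6 libraries, on a linear axis from 0 with exact 95% intervals for counting error. The ratio was lowest in the control in A549 cells (1627) and highest in the control in BEAS-2B (2830).

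These ratios were set beside those of other hairpins. In each library, 31 to 40 hairpins had both arms listed with at least 50 counts, and the median ratio of the major to the minor arm was 3.76 to 5.85. miR-21 had the most unequal arms of these in all 6 libraries. This place was fixed by the filter and is no result about the arms. The minimum of 50 counts leaves out hairpins with a scarcer minor arm. It also caps the ratio that any miRNA less abundant than miR-21-5p can reach. Among the hairpins kept, the next most unequal was miR-27b in A549 cells, with ratios of 295, 215 and 189 from the control to 5 ng/mL. In BEAS-2B, it was miR-27a in the control (127) and miR-125a at the lower dose (82.4) and 5 ng/mL (75.0).

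The change of the 5p to 3p ratio with treatment was compared in the same way, over hairpins whose arms both had a mean of at least 50 counts in the compared libraries. In BEAS-2B, the log2 change for miR-21 was -0.95 (-1.31 to -0.60) at the lower dose and -1.04 (-1.39 to -0.70) at 5 ng/mL. It was the largest decrease of 33 hairpins at the lower dose, and the second largest of 34 at 5 ng/mL after miR-181a (-1.12), with miR-331 next (-0.92). Arms were paired by name, so the miR-181a ratio leaves out miR-181a-2-3p, which is listed separately. A change of at least 1.4-fold in either direction was found for 24.2% of the hairpins at the lower dose and 35.3% at 5 ng/mL. The largest increases of the ratio at 5 ng/mL were those of miR-27a (1.70), miR-335 (1.47) and miR-424 (0.81), so hairpins moved both ways.

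In A549 cells, the log2 change of the miR-21 arm ratio was 0.58 (0.31 to 0.85) at the lower dose and 0.50 (0.19 to 0.81) at 5 ng/mL. At the lower dose, it was the 4th largest increase of 38 hairpins, of which 21.1% changed at least 1.4-fold. At 5 ng/mL, it was the 13th of 37, of which 62.2% changed, and was near the fold criterion. The largest increases at 5 ng/mL were those of miR-27a (2.16), miR-193b (1.12) and miR-365a (1.02), and the largest decreases were those of miR-409 (-1.49), miR-424 (-1.39) and miR-30a (-1.21). The change of miR-21 in A549 cells at 5 ng/mL was thus an ordinary one among the hairpins of that comparison.

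Between doses, the arm ratio hardly differed. At 5 against 1 ng/mL, its log2 change was -0.08 (-0.41 to 0.24) in A549 cells and -0.09 (-0.34 to 0.16) in BEAS-2B, and both intervals include 0. Between the controls, the ratio was lower in A549 cells, with a log2 difference of -0.80 (-1.16 to -0.45), the 4th largest decrease of 38 hairpins, of which 52.6% differed at least 1.4-fold.

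**Figure D3:**
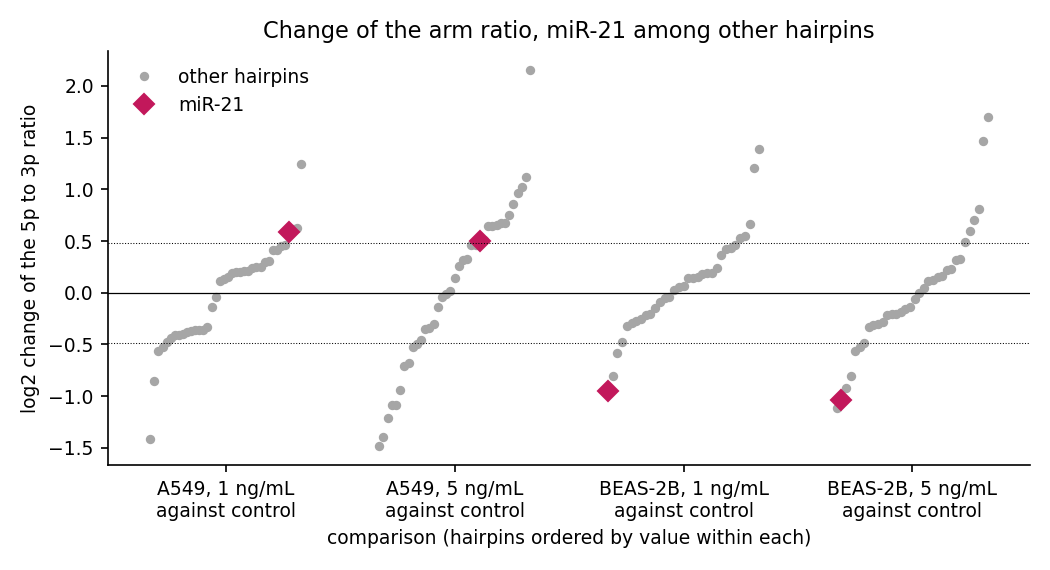
Log2 change of the 5p to 3p ratio in each comparison with control, with hairpins ordered by value, miR-21 as a diamond, other hairpins as grey points and dotted lines at a 1.4-fold change. miR-21 was at or next to the lowest value in BEAS-2B (-0.95 and -1.04) and in the upper part in A549 cells (0.58 and 0.50).

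A miRNA that takes this much of a library also bears on the scaled values of all other miRNAs. miR-21-5p had 7.90, 8.56 and 5.92 times the counts of let-7i-5p, the second most abundant miRNA, in A549 cells from the control to 5 ng/mL. In BEAS-2B, it had 6.22 times those of miR-27a-3p in the control, and 11.9 and 13.6 times those of miR-100-5p at 1 and 5 ng/mL. Without miR-21-5p, 369905, 388543 and 332151 counts were left for the other miRNAs in A549 cells, and 475048, 306630 and 328705 in BEAS-2B. The BEAS-2B control therefore had the most counts left for other miRNAs, although its total was only the fourth largest.

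From the BEAS-2B control to 5 ng/mL, the share of miR-21-5p was 21.8 percentage points higher, and the share left for all other miRNAs was lower by a log2 ratio of -0.59. When counts were scaled by the library total, the median log2 ratio of the 123 other miRNAs that met the ND criterion by TMM was -0.51, and 9 of them were at least 1.4-fold higher and 63 lower. With the total of the counts other than miR-21-5p, the median was 0.08, with 29 higher and 9 lower. TMM gave a median of -0.10, with 23 higher and 20 lower. TMM computed without both arms gave a median of -0.12 over the same miRNAs, with 21 higher and 23 lower. In this comparison, the number and direction of changes thus depended on miR-21-5p when the library total was the scale, and little when TMM was.

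At the lower dose in BEAS-2B, the medians of the 118 other miRNAs that met the ND criterion by TMM were -0.47 by total count, with 6 higher and 55 lower, and 0.00 without miR-21-5p, with 21 higher and 16 lower. TMM gave -0.04, with 17 higher and 16 lower with or without the arms in its computation. In A549 cells, where the share moved by 3.69 percentage points at the lower dose and by -5.60 at 5 ng/mL, the medians by total count and without miR-21-5p lay closer together. The median of 135 others at 1 ng/mL was -0.24 by total count, with 28 higher and 42 lower, -0.13 without miR-21-5p, with 33 and 32, and -0.11 by TMM, with 37 and 30. At 5 ng/mL, the median of 139 others was 0.15 by total count, with 51 higher and 28 lower, -0.02 without miR-21-5p and -0.01 by TMM, with 38 higher and 36 lower under both. TMM without both arms gave -0.16, with 32 higher and 34 lower, at the lower dose and -0.10, with 35 and 46, at the higher dose. In A549 cells, the TMM counts thus also depended on the arms. More miRNAs were higher than lower with the arms in, and more were lower than higher without them, at each dose.

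Relative to the median of the other miRNAs, miR-21-5p was 0.34 and -0.31 on the log2 scale in A549 cells at 1 and 5 ng/mL, and 1.06 and 1.20 in BEAS-2B, under every scaling that applies a single factor to a library, since such a factor shifts all miRNAs alike. Under such scaling, miR-21-5p was past 1.4-fold at both doses in BEAS-2B, with log2 ratios from 0.59 to 1.06 at the lower dose and from 0.69 to 1.28 at 5 ng/mL. Quantile normalisation gives each rank the same value in every library, so miR-21-5p, first in all of them, had a log2 ratio of 0 in every comparison. It cannot show a change of this miRNA.

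**Figure D4:**
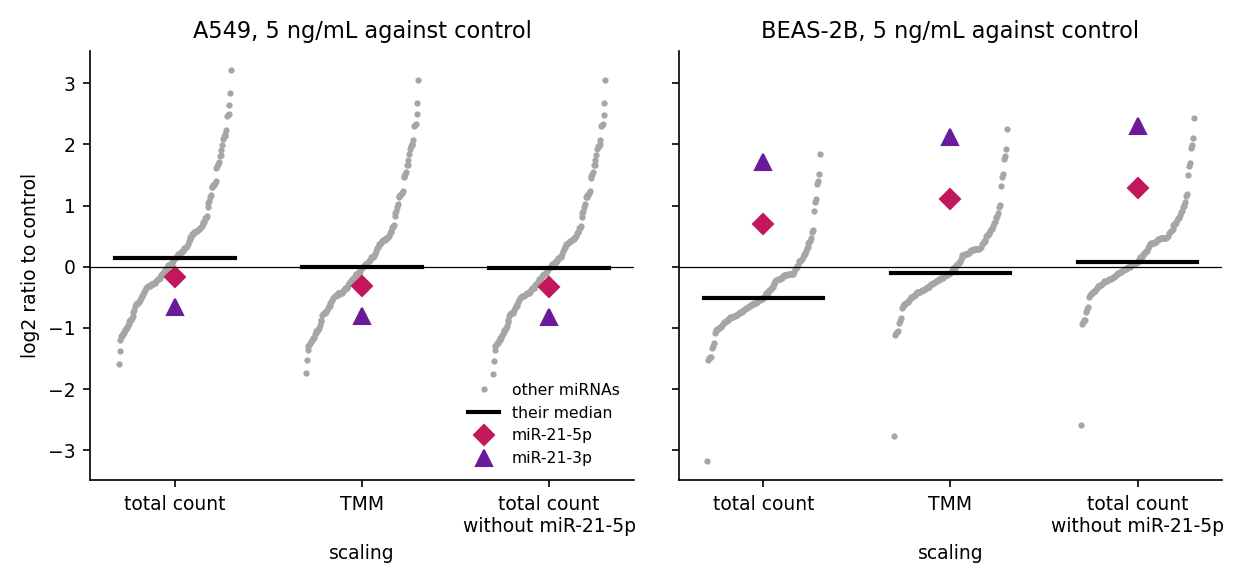
Log2 ratio to control at 5 ng/mL of each miRNA with an ND of at least 8, under scaling by total count, by TMM and by the total without miR-21-5p, with other miRNAs as ordered grey points, their median as a bar, miR-21-5p as a diamond and miR-21-3p as a triangle. In BEAS-2B, the median of the others was -0.51, -0.10 and 0.08 under these scalings, which shift all miRNAs of a comparison together.

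TMM trims extreme miRNAs before it computes a factor, yet the total it corrects contains miR-21-5p. The TMM factors were 0.912, 0.829 and 1.02 in A549 cells from the control to 5 ng/mL, and 1.32, 0.985 and 0.996 in BEAS-2B. When both arms were left out of the counts, the factors were 0.934, 0.956 and 0.986 in A549 cells and 0.986, 1.01 and 1.14 in BEAS-2B. The BEAS-2B control, with the lowest miR-21-5p share, had the highest factor with the arms in and a factor close to 1 without them. These factors multiply different totals, with and without the arms, so a difference between them is not the difference in scaling. The log2 ratio of effective sizes, BEAS-2B at 5 ng/mL to its control, was -0.35 with the arms and -0.32 without them. That of A549 cells at 5 ng/mL to their control was -0.16 with the arms and -0.08 without them.

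**Figure D5:**
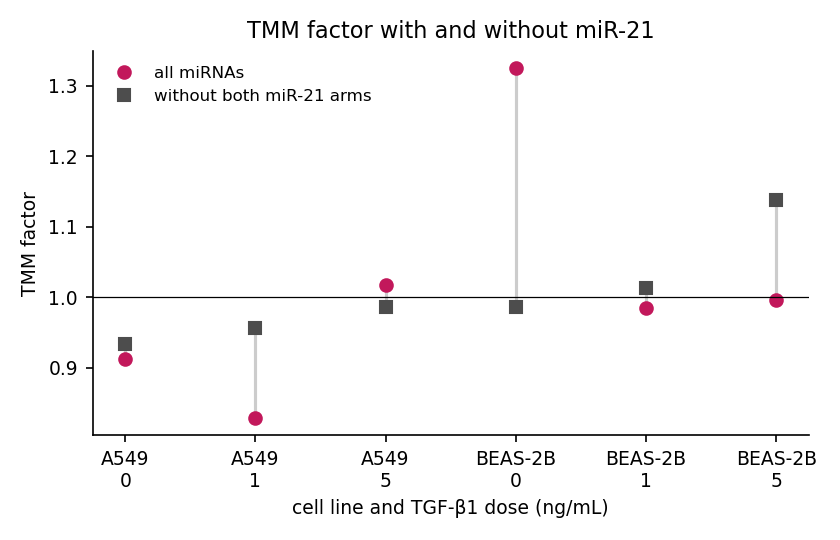
TMM factor of each library computed over all miRNAs (circles) and without both miR-21 arms (squares), where the axis does not start at 0 and the horizontal line marks 1. The factor of the BEAS-2B control was 1.32 with the arms and 0.986 without them, and each multiplies its own total.

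The letters CAGAC, described as a site for SMAD proteins, were searched on the hairpin strand and, as GUCUG, on the opposite strand. The RefSeq hairpin of MIR21 held each of them 1 time. Of 1560 hairpins, 123 (7.88%) held CAGAC and 230 (14.7%) held GUCUG. In miR-21-5p, the letters were at bases 9 to 13, just after the seed. Of the miRNAs that reached an ND of 8 in any library, 3 held CAGAC in the mature sequence, and they are shown to compare its position, in capitals.
hsa-miR-21-5p: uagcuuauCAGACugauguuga
hsa-miR-3184-5p: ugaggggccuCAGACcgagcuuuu
hsa-miR-215-5p: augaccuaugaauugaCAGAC
The position of these letters differed between the 3 miRNAs, and the match is a description of letters only.

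These 3 miRNAs did not share a pattern. miR-3184-5p, which lies opposite MIR423 so that its counts may include reads of that hairpin's strand, showed ratios to control, on the log2 scale, of 0.14 and 0.43 in A549 cells and -0.21 and -0.57 in BEAS-2B at 1 and 5 ng/mL. miR-215-5p, a miRNA known as a p53 target, had 1142, 545 and 455 counts in A549 cells and 29, 18 and 16 in BEAS-2B. Its log2 ratios in A549 cells were -1.12 and -1.16. Of the names matched to the RefSeq table, 156 had a hairpin with CAGAC, miR-21-5p among them, and unmatched names such as miR-21-3p are not in this count. Without miR-21-5p, 8 met the ND criterion in A549 cells at 5 ng/mL, with 1 higher, 3 lower and a median log2 ratio of -0.33, against 38 higher, 37 lower and a median of -0.03 over all 141 miRNAs. In BEAS-2B at 5 ng/mL, 5 met it, with 1 higher, 1 lower and a median of -0.02, against 25 higher, 20 lower and -0.08 over all 125. At the lower dose, 7 met it in A549 cells, with 0 higher, 1 lower and a median of -0.31. Over all 137 there, 37 were higher and 30 lower, with a median of -0.11. In BEAS-2B, 5 met it, with 1 higher, 0 lower and a median of -0.15. Over all 120 there, 19 were higher and 16 lower, with a median of -0.04. By total count scaling, the CAGAC miRNAs other than miR-21-5p had 2 higher and 1 lower in A549 cells at 5 ng/mL. They had 0 higher and 2 lower in BEAS-2B at 5 ng/mL, and 0 higher and 3 lower there at the lower dose. That scaling gave 51 higher and 28 lower of 139 miRNAs other than the arms in A549 cells at 5 ng/mL. In BEAS-2B, it gave 9 higher and 63 lower of 123 at 5 ng/mL, and 6 and 55 of 118 at the lower dose.

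miR-21 was also read beside other miRNAs that have been linked to TGF-β or fibrosis. Both lists, of raised and of lowered miRNAs, were chosen with earlier results of these data known, so their counts are a description only. In BEAS-2B, miR-21-3p met the ND criterion against the control only through the treated libraries. Of 10 described as raised, the miR-21 arms among them, 5 met the ND criterion in each comparison. In BEAS-2B at 5 ng/mL, 4 of the 5 were called higher and none lower, namely both miR-21 arms, miR-181a-5p (1.01) and miR-424-5p (0.83), and miR-155-5p, an inflammatory miRNA, was at -0.44. Over all miRNAs that met the ND criterion, 25 of 125 were higher and 20 lower. With the lower dose, 3 of the 5 were higher, both miR-21 arms among them, and 0 lower. Of all 120 miRNAs there, 19 were higher and 16 lower. In A549 cells at 5 ng/mL, 2 were called higher, miR-143-3p (3.05), a miRNA of smooth muscle and fibroblasts, and miR-181a-5p (1.18), and 2 lower, miR-21-3p and miR-192-5p (-1.16), against 38 higher and 37 lower of all 141. With the lower dose, 2 were higher and 1 lower, against 37 higher and 30 lower of all 137. Of members short of the ND criterion in BEAS-2B, miR-143-3p was at 3.51 and 3.97 at 1 and 5 ng/mL. It had 7, 62 and 101 counts from the control to 5 ng/mL. miR-145-5p was at 2.76 and 2.56 with at most 5 counts. miR-192-5p (-0.22 and -0.33) and miR-199a-5p (-0.62 and -1.73, at most 3 counts) were lower, and miR-214-3p had 0 counts. Without the miR-21 arms, 3 members that met the criterion were left in each comparison. Of these, 1 and 2 were higher in BEAS-2B at 1 and 5 ng/mL, with medians of 0.42 and 0.83, and 2 were higher and 1 lower in A549 cells at either dose, with medians of 1.24 and 1.18. The medians over all miRNAs that met the ND criterion were -0.04 and -0.08 in BEAS-2B and -0.11 and -0.03 in A549 cells. By total count, 6 members, the arms included, met the criterion in BEAS-2B, with 3 higher and 2 lower at 5 ng/mL. At the lower dose, 2 were higher and 2 lower. Of miRNAs other than the arms, 9 of 123 were higher and 63 lower by that scaling at 5 ng/mL. At the lower dose, 6 of 118 were higher and 55 lower. The other scalings gave at most 1 lower member. In A549 cells, 2 were higher and 1 or 2 lower under every scaling run.

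Of 9 miRNAs described as lowered, including the miR-29 family, which targets collagens, and the miR-200 family, which holds epithelial identity, 2 or 3 met the ND criterion. In A549 cells, 1 of 2 was called lower at 5 ng/mL (miR-30a-5p, -1.24), and 1 of 3 lower and 1 higher at the lower dose (miR-30a-5p, -0.59, and miR-200b-3p, 0.91). Over all miRNAs of this line, 37 of 141 were lower at 5 ng/mL, and 30 of 137 were lower and 37 higher at the lower dose. Calls in either direction were 53.2% and 48.9%. With 2 or 3 members, these counts cannot be set apart from that background. In BEAS-2B, 0 of 3 were called at 5 ng/mL, and 2 of 3 were lower at the lower dose, miR-29a-3p (-0.62) and miR-30a-5p (-0.72). Over all miRNAs there, 20 of 125 were lower at 5 ng/mL and 16 of 120 at the lower dose. Calls in either direction were 36% and 29.2%. The medians of the list were -0.33 and -0.86 in A549 cells and -0.62 and -0.39 in BEAS-2B at the lower and the higher dose. The count at 5 ng/mL in BEAS-2B turned on the scaling, with 3 of 3 lower by total count, 2 with DESeq2 size factors, and 0 higher under each. Of 123 miRNAs other than the miR-21 arms, 63 were lower by total count there and 33 with DESeq2 size factors.

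The miRNAs whose ND over the 6 libraries was most like that of each arm were found by Pearson's r among 156 candidates that reached an ND of 8 in any library. For miR-21-5p, they were miR-7-5p (0.978), miR-3529-3p (0.971), miR-21-3p (0.892), miR-148a-3p (0.785) and miR-1291 (0.783). For miR-21-3p, they were miR-21-5p (0.892), miR-1291 (0.804), miR-7-5p (0.793), miR-3529-3p (0.778) and miR-4521 (0.727). The median r over all candidates was 0.13 for miR-21-5p and -0.03 for miR-21-3p. These 6 points share cell lines, control libraries and scaling factors, so r is a description of likeness only.

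The arm most like miR-21-5p was therefore not its own partner. miR-7-5p had 1450, 1858 and 1133 counts in A549 cells and 1236, 1261 and 1486 in BEAS-2B from the control to 5 ng/mL. miR-3529-3p had 3905, 5027 and 2944 in A549 cells and 3207, 3333 and 3860 in BEAS-2B. The MIR3529 hairpin lies at chr15:88611847-88611924 on the minus strand and overlaps MIR7-2 on the plus strand (GRCh38), and the handling of strand in the counting was not given, so these may not be separate observations.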

How the data were processed

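The authors deposited raw read counts per mature miRNA, whole numbers without normalisation, for 2588 names in each of 6 small RNA libraries. The submitters' processing notes name Bowtie2 and bedtools. Versions, genome build, miRNA release and the handling of strand were not given in the sources used here. Ligation and amplification preferences of a kit bear on the level of a count, and on an arm ratio, and were not measured.

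Groups were taken from the labels. Totals ranged from 633318 to 900424 counts, and a count of 0 allows up to 3 counts, or 3.33 to 4.74 CPM. Each read spans a whole mature miRNA, so counts were not divided by length. Effective library sizes came from TMM in edgeR 4.0.16 (R 4.3.3), and normalised counts were scaled to their mean of 749498. The study's criteria, ND of at least 8 and fold change of at least 1.4, were used, with a pseudocount of 1. The scaling behind them was not given in the sources used here, nor which library had to reach the ND, and the greater was taken. Shares have exact Clopper-Pearson intervals, ratios conditional binomial intervals, and changes of the arm ratio exact conditional odds ratio intervals, all at 95%. Of hairpins with both arms listed, 838 were considered, and those with a mean of at least 50 counts for each arm in the compared libraries were used. Arms were paired by name, so a name shared by several hairpins counts as 1 hairpin.

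Alternatives were DESeq2 1.42.0 size factors, total counts with and without miR-21-5p, TMM without both arms or within a line, limma 3.58.1 quantile normalisation, other pseudocounts, and other count, ND and fold thresholds. Sequences came from the RefSeq tables (GRCh38.p14), to which 2281 names (88.1%) matched, 1 of the 2 arms (miR-21-5p) among them, and positions of genes from GENCODE release 29 (GRCh38). Intervals were computed with scipy 1.17.1, and tables handled with pandas 2.3.3 and numpy 2.4.6, under Python 3.11.15. The procedure was tested on simulated data, Poisson counts from a shared profile with few miRNAs changed besides the arms. Such data hold no spread between cultures and no difference between lines, so they check the computation only. The members, lists and rules were chosen with earlier results of these data known. The rule named both arms, the 5 most abundant miRNAs where shares are compared, miRNAs with the seed of miR-21, the 5 most like each arm, the 3 hairpins with the largest increase and decrease of arm ratio at 5 ng/mL, mature miRNAs with CAGAC, and list members where needed.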

Additional observations from a re-analysis of the deposited data

Results flagged for a closer look

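miR-21-3p was lower in both treated A549 libraries and higher in both treated BEAS-2B libraries than in the control of the line. At 5 ng/mL, its log2 ratio to control was -0.81 in A549 cells and 2.12 in BEAS-2B, a difference of -2.94, and at 1 ng/mL it was -0.35 and 1.95, a difference of -2.30. The direction was opposite between the lines under every alternative scaling run. Other pseudocounts were also run, but they cannot change the direction of a ratio. With 1 library a group the difference was not tested, and both doses of a line share its control.

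The 5p to 3p ratio of miR-21 also differed in direction. Its log2 change at 5 ng/mL was 0.50 in A549 cells and -1.04 in BEAS-2B, a difference of 1.54, and at 1 ng/mL 0.58 and -0.95, a difference of 1.53. This ratio rests on 92 to 318 counts of miR-21-3p in a library, and the difference was not tested.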

How the results depend on the processing

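No paired analysis was possible because each group had 1 library and the labels carry no replicate numbers. Depth limits miR-21-3p, with 92 to 318 counts, and not miR-21-5p, whose counting interval is so narrow that nearly any change of scaling moves its ratio beyond it. Of 208 alternative values, 147 stayed within the counting interval or within 1.5 times the count, 61 moved and 0 reversed. A reversal could be recorded only for a called ratio or a called arm ratio change, never for a count or share. Other pseudocounts cannot reverse a ratio between libraries, and quantile normalisation sets that of miR-21-5p to 0. The 0 is therefore no result over all 208 values. The change of the miR-21 arm ratio stayed within its interval with 0.5 or 10 added to each arm. The share of miR-21-3p did so with a total over fewer miRNAs. Neither depends on scaling between libraries, so these were narrow checks. Where a ratio moved, the alternative applies another factor to each library or, for quantile normalisation, gives equal ranks equal values. Other thresholds keep another number of miRNAs or hairpins.

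The log2 ratios to control of miR-21-5p follow in the order A549 at 1 and 5 ng/mL, then BEAS-2B at 1 and 5 ng/mL. They were 0.14, -0.41, 0.95 and 0.98 with DESeq2 size factors, 0.10, -0.16, 0.59 and 0.69 by total count, and 0 in all 4 by quantile normalisation. By total count without miR-21-5p, those that moved were 0.22 in A549 cells at 1 ng/mL and 1.06 and 1.28 in BEAS-2B. With TMM without both arms, they were 0.18 and -0.40 in A549 cells and 1.08 in BEAS-2B at 5 ng/mL, and with TMM within each line 0.17 and -0.39 in A549 cells. At 5 against 1 ng/mL, those of miR-21-5p in A549 cells were -0.26 by total count, which ends its call, -0.54 without miR-21-5p, -0.58 with TMM without both arms, -0.56 with TMM within the line and 0 by quantile normalisation. In BEAS-2B they were 0.037 with DESeq2, 0.10, 0.22, 0.055 and 0 by total count, total without miR-21-5p, TMM without both arms and quantile. Between the controls they were 1.07 with DESeq2, and 0.59, 1.05 and 0 by total count, total without miR-21-5p and quantile. TMM within each line gave 0.92 there, but its factors are set within a line, so that value does not compare the lines. miR-21-3p moved to 1.53 and 1.72 by total count in BEAS-2B at 1 and 5 ng/mL, to 1.80 by quantile at 5 ng/mL, and to 1.38 and 1.48 by total count and quantile between the controls.

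The miRNAs past the criteria in A549 cells were 44 and 41 at 1 and 5 ng/mL with the ND criterion on both libraries, and 21 and 42 with a fold change of at least 2, against 67 and 75. In BEAS-2B at 1 and 5 ng/mL they were 70 and 79 by total count, 23 and 26 with an ND of at least 9, and 13 and 15 with a fold change of at least 2, against 35 and 45, and 29 at 5 ng/mL with the ND criterion on both libraries. For miR-21-3p, the calls in A549 cells at 5 ng/mL and between the controls end by total count, where its greater ND was 7.94. That in A549 cells at 5 ng/mL also ends by TMM within each line, where the greater ND was 7.99. By the ND criterion on both libraries, miR-21-3p has no call. Quantile normalisation gives it a call in A549 cells at 1 ng/mL (-0.58). The share of miR-21-5p among miRNAs with a mean count of at least 10 was 57.0% in A549 cells at 1 ng/mL and 57.3% in BEAS-2B at 5 ng/mL. Among miRNAs counted in all 6 libraries it was 35.6%, 53.5% and 57.4% in BEAS-2B from the control to 5 ng/mL. With a mean of at least 20 counts an arm, 18 of 60 and 35 of 59 hairpins changed in A549 cells at 1 and 5 ng/mL, and 16 of 57 and 27 of 61 in BEAS-2B. With at least 100 counts, 12 of 29 differed between the controls.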
